A study of Mus musculus with 15 samples.

Results

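Inhibitory receptor genes of immune cells were followed in brain tissue of APP-PS1 and wild-type (WT) mice. The 10 genes are Pdcd1, Havcr2, Lag3, Gm49339, Pirb, Lair1, Cd22, Cd33, Sirpa and Cd200r1, found by Ensembl row. The list was selected on inhibitory function and with the levels of these genes in the same libraries known, so their differences between groups are a description and support nothing. They are 10 of 46078 genes in the count table and held 0.0368% of all gene counts. All 10 passed the filter on low counts, among 18974 genes tested. Pdcd1 reached the filter's level of 0.334 CPM (counts scaled to library size) in 4 treated and 4 PBS-given APP-PS1 libraries and in 0 WT libraries, so it could enter the test only by being higher in APP-PS1 mice. Cd22 reached it in 5, 4 and 3 libraries of those groups and Cd200r1 in 4, 5 and 2, and the other 7 genes in every library.

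Poly(A) RNA was sequenced from 1 dissected region of 1 hemisphere per mouse after perfusion. The labels do not name the region. The groups were 5 APP-PS1 mice injected with an antibody to CD8a, the co-receptor of cytotoxic T cells, 5 APP-PS1 mice injected with PBS and 5 WT mice injected with PBS. APP-PS1 mice model amyloid deposition. Their transgenes are a Swedish-mutant amyloid precursor protein, part mouse and part human, and a human presenilin 1 mutant named PS1-dE9, and the prion protein promoter that drives both is active in neurons. Mice of both sexes were 12 months old and were treated over 4 weeks. Treated mice received 0.8 mg of antibody at each of 10 injections, the others 100 µL of PBS. The antibody was compared with PBS, so an effect of CD8a binding and an effect of injecting an antibody cannot be told apart. Each title carries its own animal number, so every library is a different mouse, and the p-values measure the spread between these mice.

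Inhibitory receptors hold immune cells in check. On binding their ligands, most of them are phosphorylated on tyrosine motifs of the cytoplasmic tail and recruit the phosphatases SHP-1, SHP-2 or SHIP1, which oppose activating signals from kinases such as Syk. Pdcd1, Havcr2 and Lag3 are best known as checkpoints of T cells. Paired immunoglobulin-like receptors, Lair1, Sirpa, Cd200r1 and Cd33, a sialic acid-binding receptor (Siglec), act on myeloid cells, of which microglia are the resident ones in brain. Cd22, also a Siglec, is known as a brake on B-cell receptor signalling. In bulk tissue, more cells of a type and more RNA per cell cannot be told apart.

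The start regions of 5 of the members that passed the test in treated over WT mice, and of Pirb, are shown for what they share and do not share. Pirb passed in no comparison and was picked because it holds the most matches to the motif marked below. Lag3 and Cd33 passed too but are not shown. Lag3 had no promoter entry, and the match of Cd33 lies outside the stretch shown for the others. Promoter sequences are from RefSeq on build GRCm38.p6, and 7 of the 10 members matched an entry. Gm49339 was matched through Lilr4b, whose start is the same base as that of Gm49339 in a GENCODE annotation. The stretch named Gm49339 is therefore the start region of Lilr4b, a gene without an inhibitory tail. The start of its inhibitory relative Lilrb4a (below) was not searched among the members. Each stretch runs 5′ to 3′ on the gene's own strand from 150 bases before the start to 30 bases from it, and capitals mark GAGGAA on either strand (TTCCTC where it lies on the opposite one). Pdcd1 is at chr1:94052524-94052703 (minus strand), Havcr2 at chr11:46454781-46454960 (plus strand), Gm49339 at chr10:51480462-51480641 (plus strand), Cd22 at chr7:30878999-30879178 (minus strand), Lair1 at chr7:4063175-4063354 (minus strand) and Pirb at chr7:3720353-3720532 (minus strand).
Pdcd1: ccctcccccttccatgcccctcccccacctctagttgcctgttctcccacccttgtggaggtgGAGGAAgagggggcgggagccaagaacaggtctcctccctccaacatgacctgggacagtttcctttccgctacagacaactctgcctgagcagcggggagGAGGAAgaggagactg
Havcr2: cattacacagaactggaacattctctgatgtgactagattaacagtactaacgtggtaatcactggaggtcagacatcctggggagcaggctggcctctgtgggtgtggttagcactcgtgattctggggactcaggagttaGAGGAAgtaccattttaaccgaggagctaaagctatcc
Gm49339: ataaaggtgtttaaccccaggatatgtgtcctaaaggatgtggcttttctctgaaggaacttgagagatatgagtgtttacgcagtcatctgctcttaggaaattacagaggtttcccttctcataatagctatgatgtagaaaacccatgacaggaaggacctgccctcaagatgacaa
Cd22: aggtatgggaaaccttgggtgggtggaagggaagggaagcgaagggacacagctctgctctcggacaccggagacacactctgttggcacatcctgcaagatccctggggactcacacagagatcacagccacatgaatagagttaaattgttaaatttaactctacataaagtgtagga
Lair1: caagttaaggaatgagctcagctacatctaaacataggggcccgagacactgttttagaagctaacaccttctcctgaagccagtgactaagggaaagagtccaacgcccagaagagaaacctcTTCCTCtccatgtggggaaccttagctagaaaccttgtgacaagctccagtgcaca
Pirb: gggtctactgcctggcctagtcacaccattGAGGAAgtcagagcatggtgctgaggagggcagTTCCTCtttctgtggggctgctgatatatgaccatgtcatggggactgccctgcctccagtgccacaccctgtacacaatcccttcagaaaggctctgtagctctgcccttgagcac

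Motifs were looked for on both strands of the longer window from 250 bases before to 50 bases after each start. For Cd22 and Cd33 the RefSeq start lies well inside the gene interval given below, so the window misses that interval's 5′ end. GAGGAA, the core of sites for ETS-family factors such as PU.1, was in 5 of the 7 member promoters, against 28.3% of all 32851 promoters of the same length. Positions count from the start, the first base of a match being given. Pdcd1 had it at -87 and 15, Havcr2 at -8, Lair1 at -26 on the opposite strand and Cd33 at -226. Pirb had it at -185 and -120, and at -87 on the opposite strand. GAGGAAGT, which contains GAGGAA, was in 2 of 7 (Havcr2 and Pirb) against 3.2% of all promoters. TGANTCA, the letters of AP-1 sites, was in 1 of 7 (Havcr2, at -200) against 7.81%, and the motif of interferon-response elements, GAAA repeated after any 2 bases, in 0 of 7 against 3.44%. Gm49339, read from the start of Lilr4b, and Cd22 held none of them in that window. These are matches of letters in a window, and nothing is drawn from them about any factor.

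At the gene level, intervals (GRCm38) were taken from the same GENCODE annotation, which need not be the one used for counting. They were 94038305 to 94052553 on chromosome 1 for Pdcd1, 46454935 to 46481255 on chromosome 11 for Havcr2 and 124904361 to 124911705 on chromosome 6 for Lag3. Gm49339 lies at chromosome 10, 51480612 to 51496613. In that annotation its interval overlaps Lilrb4a, which encodes the inhibitory receptor gp49B, and Lilr4b, which encodes its close relative gp49A without an inhibitory tail. Neither has a row of its own in the table, so the row's reads cannot be assigned to one of them. Pirb (3711409 to 3720391), Lair1 (4003402 to 4063204), Cd22 (30865402 to 30880342) and Cd33 (43524216 to 43544428) are all on chromosome 7. Sirpa lies on chromosome 2 from 129592835 to 129632228 and Cd200r1 on chromosome 16 from 44765736 to 44794978. Pirb belongs to a family of near-identical genes and its reads could be split with them; Pira2, one such relative, had 3, 6 and 4 counts in all treated, PBS-given APP-PS1 and WT libraries.

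Gene counts per library ran from 17736524 to 36485809, so 3 counts correspond to 0.0824 to 0.166 CPM, a floor for counting error only. App, counted from the mouse gene and the transgene together, was 2467 to 3153 CPM in treated, 2420 to 3036 CPM in PBS-given APP-PS1 and 1230 to 1324 CPM in WT libraries, as the genotype labels say. Choroid plexus RNA was abundant in 5 libraries (1 treated, 2 PBS-given APP-PS1 and 2 WT), where Ttr exceeded 1000 CPM. One library labelled male, PBS-given APP-PS1 replicate 1, had the female pattern of Xist and Y-linked genes.

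Between PBS-given APP-PS1 and WT mice, Gm49339 and Pdcd1 had the largest fold changes of the 10 genes and Sirpa the smallest. All 10 had a higher estimate, against 46.9% of all genes tested. An adjusted p of 0.05 in edgeR was passed by 5 (Havcr2, Lag3, Gm49339, Lair1 and Cd33), all higher, against 1.03% of all genes tested in either direction and 0.938% higher. The groups did not overlap for 6, all higher, against 2.89% of genes in either direction and 1.83% higher. Without labelled sex in the model the calls were 3 (Havcr2, Gm49339 and Lair1). The members' median log2 fold change was 0.80, against -0.01 over all genes tested. Treated over WT mice gave 10 higher estimates, against 48.9% of all genes tested. The calls were 7, Pdcd1 and Cd22 beside those 5, against 1.94% of genes called in either direction and 1.76% higher. There 8 did not overlap, all higher, against 3.04% of genes in either direction and 2.16% higher. Without treated replicate 3 the calls were 4 (Lag3, Gm49339, Lair1 and Cd33), of 140 genes in all. The median was 0.77, against -0.0032 over all genes. Treated against PBS-given APP-PS1 mice gave 0 members called at an adjusted p of 0.05 in edgeR, where 0% of all genes were called, 1 at an unadjusted p under 0.05 (13.3% of all genes), and 0 without overlap (1.8% of all genes); DESeq2 called 0 of them too. Both comparisons with WT share the WT libraries, and each APP-PS1 group enters 2 comparisons, so the 3 are not independent. Nothing is read from the members' counts in the comparisons with WT.

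**Figure D1:**
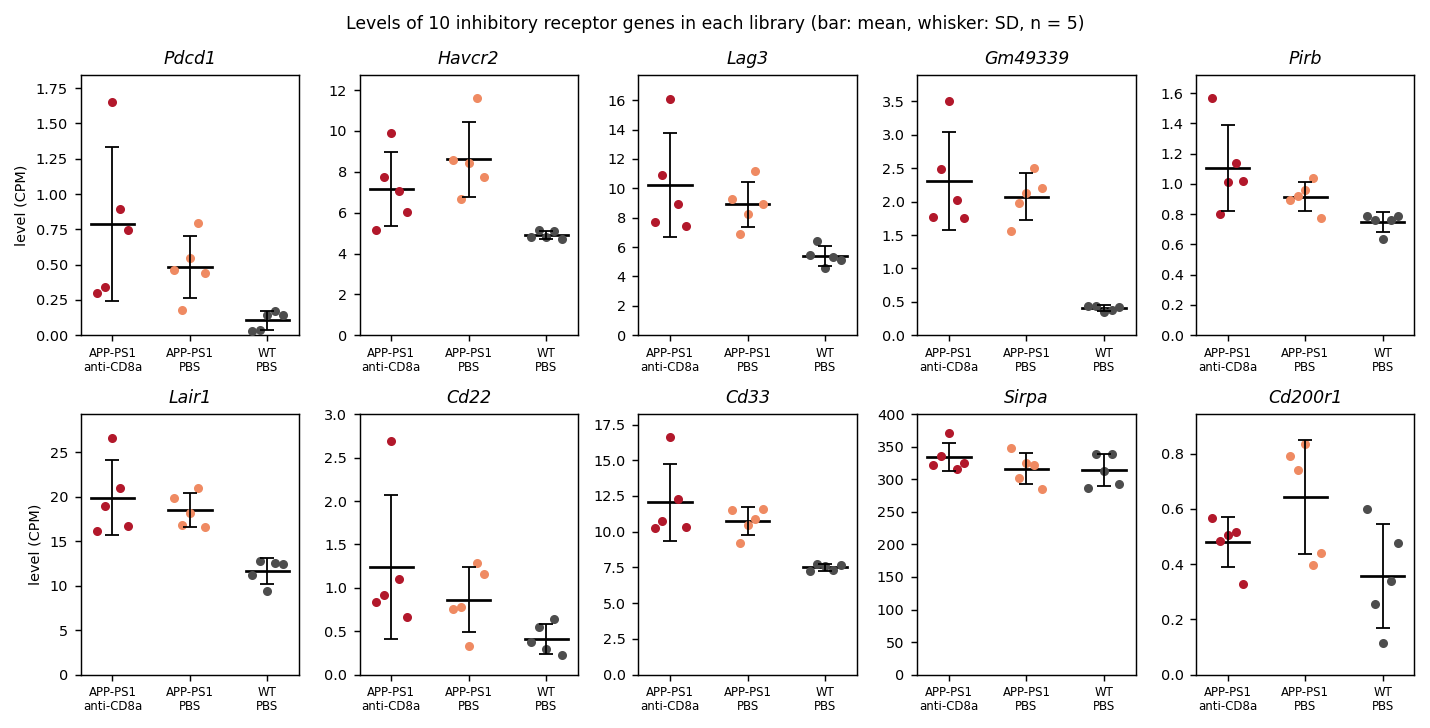
Level in CPM (y axis) of each of the 10 genes in each library (points), with the mean (bar) and SD (whisker) of 5 libraries per group. Gm49339 is at most 0.443 CPM in WT libraries and at least 1.55 CPM in APP-PS1 libraries, whereas Sirpa lies between 285 and 372 CPM in all 3 groups.

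Genes best known as T-cell checkpoints come first. Pdcd1 encodes PD-1, a brake on activated T cells that binds PD-L1. It had 9, 12, 49, 26 and 27 counts in treated libraries, 14, 5, 13, 26 and 8 in PBS-given APP-PS1 libraries and 1, 1, 5, 4 and 5 in WT libraries. In CPM these were 0.300, 0.342, 1.65, 0.895 and 0.742 in treated, 0.463, 0.177, 0.544, 0.793 and 0.442 in PBS-given APP-PS1 and 0.0316, 0.0363, 0.144, 0.170 and 0.141 in WT libraries. Every WT library was below every APP-PS1 library, the top WT value being 0.170 CPM and the lowest APP-PS1 value 0.177 CPM, so the groups are separated by few counts. Treated replicate 3 stood far above its group. The log2 fold change over WT was 3.02 (SE 0.57, adjusted p = 0.00817 in edgeR) in treated mice and 2.36 (SE 0.61, adjusted p = 0.0912 in edgeR) in PBS-given APP-PS1 mice, and between treated and PBS-given it was 0.67 (95% interval -0.26 to 1.59). Without treated replicate 3 the fold over WT in treated mice was 2.39 with an adjusted p of 0.0918 in edgeR.

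Havcr2 encodes TIM-3, a receptor of T cells and myeloid cells that binds galectin-9. It measured 5.17, 7.76, 9.90, 7.05 and 6.02 CPM in treated, 8.60, 6.68, 8.45, 11.6 and 7.73 CPM in PBS-given APP-PS1 and 4.80, 5.15, 4.82, 5.08 and 4.73 CPM in WT libraries. WT libraries lay close together (4.92 ± 0.187 CPM, SD, n = 5) and below all of both APP-PS1 groups, which overlapped each other. The log2 fold change was 0.66 (SE 0.14, adjusted p = 0.0188 in edgeR) in treated over WT mice and 0.94 (SE 0.14, adjusted p = 0.00247 in edgeR) in PBS-given APP-PS1 over WT mice. Treated over PBS-given gave -0.28 (95% interval -0.56 to -0.00035, unadjusted p = 0.0498, adjusted p = 0.374 in edgeR), the only member with an unadjusted p under 0.05 there. Without treated replicate 3 its fold in treated over WT mice was 0.53 with an adjusted p of 0.160 in edgeR.

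Lag3 encodes a CD4-like receptor that binds MHC class II and limits T-cell activation. It was at 7.68, 10.9, 16.1, 8.95 and 7.45 CPM in treated, 9.26, 6.92, 8.24, 11.2 and 8.94 CPM in PBS-given APP-PS1 and 5.47, 6.42, 4.56, 5.30 and 5.12 CPM in WT libraries. Neither APP-PS1 group reached down to WT, whose highest library (6.42 CPM) was under their lowest (6.92 CPM). The log2 fold change over WT was 1.05 (SE 0.15) in treated and 0.89 (SE 0.16) in PBS-given APP-PS1 mice, with adjusted p values of 0.00116 and 0.00819 in edgeR.

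Immunoglobulin-like receptors of myeloid cells followed. Gm49339 had 1.77, 2.48, 3.50, 2.03 and 1.76 CPM in treated, 1.55, 1.98, 2.13, 2.50 and 2.21 CPM in PBS-given APP-PS1 and 0.443, 0.435, 0.347, 0.381 and 0.422 CPM in WT libraries. Both APP-PS1 groups lay wholly above WT, and they overlapped each other. The log2 fold change over WT was 2.63 (SE 0.18, adjusted p = 5.03e-07 in edgeR) in treated mice and 2.50 (SE 0.19, adjusted p = 1.53e-06 in edgeR) in PBS-given APP-PS1 mice. Against PBS-given mice, treated mice differed by 0.13 (95% interval -0.19 to 0.45).

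Lair1, a receptor for collagens and for C1q, was at 16.1, 19.0, 26.6, 20.9 and 16.7 CPM in treated, 19.8, 16.8, 18.1, 21.0 and 16.6 CPM in PBS-given APP-PS1 and 11.1, 12.7, 9.36, 12.6 and 12.4 CPM in WT libraries. Again no WT library reached the lowest APP-PS1 library. Its log2 fold change over WT was 0.81 (SE 0.13, adjusted p = 0.00264 in edgeR) in treated and 0.71 (SE 0.13, adjusted p = 0.0122 in edgeR) in PBS-given APP-PS1 mice.

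Pirb, a receptor for MHC class I and for myelin inhibitors such as Nogo, ranged over 0.799 to 1.57 CPM in treated (median 1.02), 0.773 to 1.04 CPM in PBS-given APP-PS1 (median 0.918) and 0.635 to 0.790 CPM in WT libraries (median 0.763). Treated and WT ranges were apart by 0.799 against 0.790 CPM, and the PBS-given APP-PS1 range overlapped WT. Its log2 fold changes over WT, 0.47 (adjusted p = 0.294 in edgeR) in treated and 0.23 (adjusted p = 0.679 in edgeR) in PBS-given APP-PS1 mice, did not pass.

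Siglecs bind sialic acids on neighbouring cells. Cd33, which marks myeloid cells and lies in a human locus associated with Alzheimer's disease, was at 10.3, 10.7, 16.6, 12.3 and 10.3 CPM in treated, 11.5, 9.18, 10.5, 10.9 and 11.6 CPM in PBS-given APP-PS1 and 7.24, 7.76, 7.56, 7.29 and 7.68 CPM in WT libraries. WT libraries spread by 0.232 CPM (SD) and did not overlap with either APP-PS1 group. The log2 fold change was 0.73 (SE 0.12, adjusted p = 0.00285 in edgeR) in treated over WT mice and 0.57 (SE 0.12, adjusted p = 0.0282 in edgeR) in PBS-given APP-PS1 over WT mice. The second of these calls was lost without any 1 of 7 libraries, with adjusted p values of up to 0.0851 in edgeR.

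Cd22, known as a brake on B-cell receptor signalling and also found on microglia, had 0.835, 0.913, 2.69, 1.10 and 0.659 CPM in treated, 0.760, 0.777, 0.335, 1.28 and 1.16 CPM in PBS-given APP-PS1 and 0.379, 0.544, 0.289, 0.636 and 0.225 CPM in WT libraries. Treated libraries were above all WT libraries, narrowly for replicate 5, and PBS-given APP-PS1 libraries overlapped WT in 1 library. Its log2 fold change over WT was 1.95 (SE 0.33, adjusted p = 0.00426 in edgeR) in treated and 1.46 (SE 0.35, adjusted p = 0.0625 in edgeR) in PBS-given APP-PS1 mice. Treated replicate 3 was again the highest, and without it the fold in treated over WT mice was 1.51 with an adjusted p of 0.0564 in edgeR. That call was also lost in 2 of 9 alternatives other than leaving out 1 library.

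Receptors for self-signals on neurons were not called in any comparison. Sirpa, which binds CD47 and is present on neurons as well as on myeloid cells, ran from 317 to 372 CPM in treated (median 326), 285 to 349 CPM in PBS-given APP-PS1 (median 322) and 287 to 340 CPM in WT libraries (median 314). The 3 ranges overlapped. Its log2 fold changes over WT were 0.11 (95% interval -0.04 to 0.25) in treated and 0.03 (95% interval -0.12 to 0.18) in PBS-given APP-PS1 mice. Cd200r1, the receptor for CD200 on neurons, had 12 to 17 counts in treated, 8 to 24 in PBS-given APP-PS1 and 4 to 19 in WT libraries. Its intervals over WT, -0.47 to 0.99 in treated and -0.09 to 1.39 in PBS-given APP-PS1 mice, are wide at these counts.

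**Figure D2:**
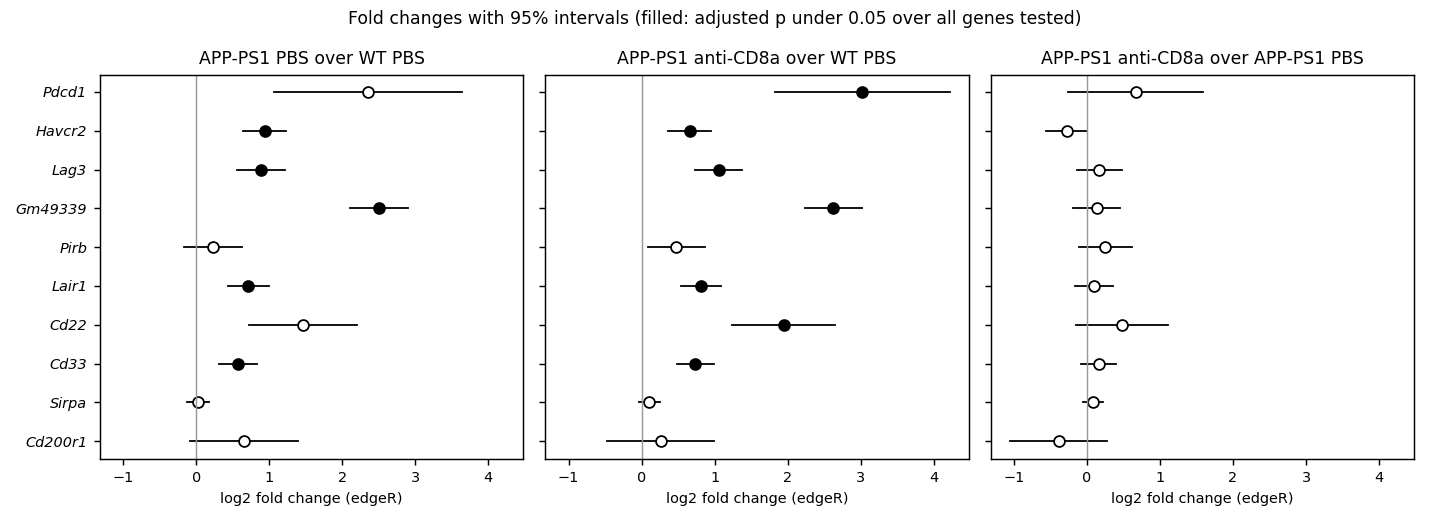
Log2 fold change (x axis, edgeR) with its 95% interval (line) of each gene (y axis) in the 3 comparisons; filled points had an adjusted p under 0.05 over all genes tested. Pdcd1 and Gm49339 lie farthest to the right in both comparisons with WT, and no point is filled for treated over PBS-given APP-PS1 mice.

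The 95% interval of the log2 fold change in treated over PBS-given APP-PS1 mice was narrower for the abundant members than for the rare ones. For Sirpa it spanned -0.06 to 0.22, for Lair1 -0.17 to 0.36, for Cd33 -0.08 to 0.40 and for Lag3 -0.14 to 0.47. For Cd22 it spanned -0.15 to 1.11 and for Cd200r1 -1.06 to 0.27. A p above the threshold does not show that the groups are alike. Treated replicate 3 was the highest library in 7 of 10 members and treated replicate 1, PBS-given APP-PS1 replicate 3 and PBS-given APP-PS1 replicate 4 in 1 each.

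Levels per kilobase of exon, with exon lengths from the GENCODE annotation, ranked the members among themselves. In PBS-given APP-PS1 mice Sirpa led at 64.5 ± 4.88 CPM per kb (SD, n = 5), followed by Lag3 (4.22 ± 0.734), Havcr2 (3.17 ± 0.678), Lair1 (2.47 ± 0.257), Cd33 (1.38 ± 0.127) and Gm49339 (1.04 ± 0.175). Pdcd1 (0.251 ± 0.115), Pirb (0.205 ± 0.0218), Cd200r1 (0.192 ± 0.0618) and Cd22 (0.171 ± 0.0742) formed the lowest group. Sirpa stood apart from the rest. Lag3 and Havcr2 overlapped, as did Havcr2 and Lair1, Cd33 and Gm49339, and all 4 of the lowest.

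Cell type markers were read from lists of genes known for each type. The 10 microglia markers summed to 535 to 959 CPM in treated, 548 to 699 CPM in PBS-given APP-PS1 and 371 to 437 CPM in WT libraries. Of the 10, 9 were called higher in treated over WT mice, against 1.76% of all genes tested. In PBS-given APP-PS1 over WT mice 7 of 10 were called higher, against 0.938% of all genes. Treated replicate 3, the highest library for 7 of the 10 receptors, also held the top sum, 959 CPM. The 8 plaque-associated microglia markers summed to 264 to 500, 277 to 384 and 174 to 220 CPM in the same order of groups. Of these, 5 of 8 were called higher in each comparison with WT, against the same shares of all genes. No gene of either list was called in treated over PBS-given mice. The part of these markers in the members' differences from WT was not tested.

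T-cell markers were low. The 10 genes summed to 1.26 to 2.89 CPM in treated, 1.71 to 2.69 CPM in PBS-given APP-PS1 and 1.40 to 2.25 CPM in WT libraries, none at 0 over a whole group, and 3 of 10 were tested with 0 called. Cd3e, part of the T-cell receptor complex, had 22, 22 and 11 counts in all libraries of the 3 groups and Cd8a, the antibody's target, had 53, 42 and 33 counts. Lag3 was at least 4.56 CPM and Havcr2 at least 4.73 CPM in every library, each above the summed T-cell markers. Which cells the reads of Lag3 and Havcr2 came from was not tested. The 6 B-cell markers summed to 18.0 to 34.4, 14.7 to 23.3 and 13.7 to 22.7 CPM in treated, PBS-given APP-PS1 and WT libraries, with 0 called. Ighm formed most of that sum, with means of 22.6, 18.4 and 18.7 CPM in these groups. The 5 NK-cell markers were at 0.542 CPM or less in every library. The 6 border macrophage markers summed to 8.52 to 20.4, 10.3 to 31.4 and 10.5 to 27.1 CPM, with a median log2 fold change of -0.73 in treated over PBS-given mice and no gene called. The 6 choroid plexus markers all had lower estimates in each comparison, with a median log2 fold change of -1.52 in treated over PBS-given mice and none called. They summed to 53.2 to 2038, 66.6 to 4469 and 67.9 to 6994 CPM in treated, PBS-given APP-PS1 and WT libraries.

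Markers of other brain cells gave the following sums. The 4 astrocyte markers summed to 1798 to 2616 CPM in treated and 1949 to 2389 CPM in PBS-given APP-PS1 libraries, against 1375 to 1581 CPM in WT libraries, so that both APP-PS1 groups lay above WT without overlap. Gfap, the filament gene of reactive astrocytes, rose over WT in treated (log2 fold change 1.29, adjusted p = 0.000127 in edgeR) and PBS-given APP-PS1 mice (1.23, adjusted p = 0.000292 in edgeR). Aqp4, a water channel of astrocytes, rose in PBS-given APP-PS1 over WT mice (0.46, adjusted p = 0.0459 in edgeR) and had 0.29 (adjusted p = 0.237 in edgeR) in treated over WT mice. Of the 4 markers, 1 was called higher in treated and 2 in PBS-given APP-PS1 over WT mice, against 1.76% and 0.938% of all genes. Mean levels in treated, PBS-given APP-PS1 and WT mice were 880, 833 and 383 CPM for Gfap. Slc1a3 (887, 904 and 834 CPM) and Aldh1l1 (56.9, 53.3 and 54.7 CPM) were not called in either comparison with WT. The part of astrocytes in the members' differences from WT was not tested. The 6 neuron markers summed to 6365 to 7068 CPM in treated, 6420 to 7051 CPM in PBS-given APP-PS1 and 6215 to 6923 CPM in WT libraries. The 4 oligodendrocyte markers summed to 3912 to 5158, 4036 to 4969 and 3859 to 5031 CPM in the same order of groups, and the 3 endothelial markers to 123.9 to 138.6, 113.5 to 137.8 and 111.8 to 133.2 CPM. The 5 dendritic-cell markers summed to 28.8 to 31.4, 27.6 to 32.2 and 27.6 to 29.1 CPM, and the 7 markers of neutrophils and monocytes to 1.80 to 3.51, 1.26 to 5.23 and 1.63 to 3.01 CPM. The groups overlapped in each of these 5 lists, and 0 of their genes were called. Flt3 and Zbtb46 (17.0 and 11.8 CPM on average in treated mice) formed most of the dendritic-cell sum. Xcr1, Clec9a and Cd209a were each under 1 CPM on average in every group, so the sum says little about them.

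**Figure D3:**
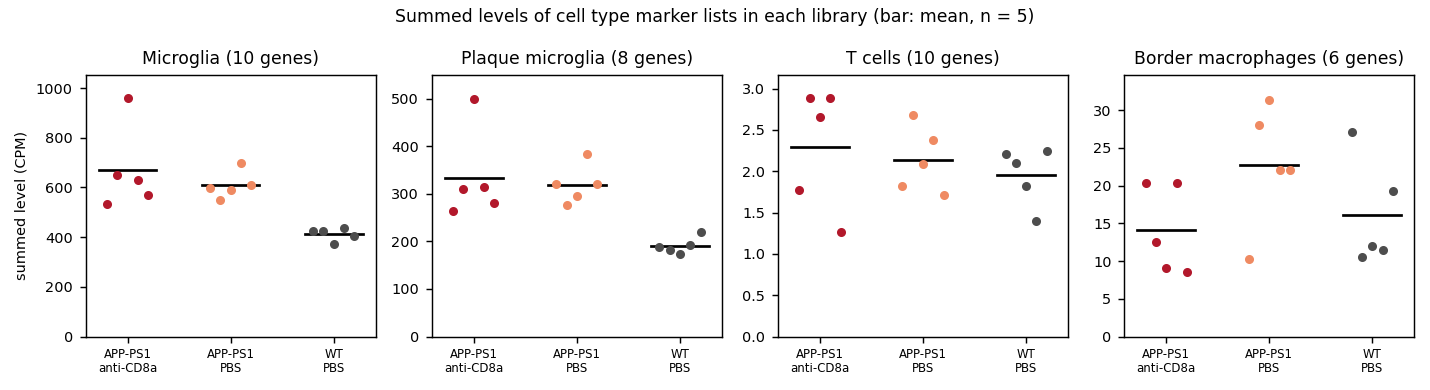
Summed level in CPM (y axis) of 4 marker lists in each library (points), with the mean of 5 libraries per group (bar). Microglia sums are at least 535 CPM in APP-PS1 libraries and at most 437 CPM in WT libraries, while the T-cell sums overlap between groups.

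Set against the microglia marker sum, Lair1, Cd33, Lag3, Cd22 and Cd200r1 overlapped between all groups, and Havcr2 in both APP-PS1 groups overlapped WT. Gm49339 still lay apart from WT in both APP-PS1 groups. Per 1000 CPM of the 10 markers, of which Csf1r formed 27.3%, Gm49339 was at 3.42 ± 0.306 in treated, 3.40 ± 0.453 in PBS-given APP-PS1 and 0.983 ± 0.0762 in WT libraries (SD, n = 5 each). Pdcd1 was at 1.11 ± 0.536 in treated, 0.775 ± 0.299 in PBS-given APP-PS1 and 0.257 ± 0.162 in WT libraries. Ratios of the groups were apart, with the APP-PS1 libraries higher, for Gm49339 and Pdcd1 in treated over WT mice, against 0.248% of genes, and for Gm49339 in PBS-given APP-PS1 over WT mice, against 0.269%. No member was apart upward in treated over PBS-given mice (0.0316% of genes). In treated, PBS-given APP-PS1 and WT libraries Lair1 was at 29.9 ± 2.02, 30.3 ± 2.11 and 28.2 ± 2.40 and Cd33 at 18.1 ± 1.25, 17.7 ± 1.54 and 18.3 ± 1.51. Lag3 was at least 13.1 in treated, 12.6 in PBS-given APP-PS1 and 12.1 in WT libraries, where it reached 15.1. Cd22 ran from 1.16 to 2.81 in treated, 0.566 to 1.90 in PBS-given APP-PS1 and 0.556 to 1.45 in WT libraries. Havcr2 was at 10.8 ± 0.868 in treated and 14.0 ± 1.74 in PBS-given APP-PS1 mice, 9.67 to 12.0 against 12.2 to 16.6, without overlap, against 0.253% of genes lower in that way; its level in WT mice was 11.9 ± 0.658. Sirpa was at 517 ± 82.8 in treated and 522 ± 54.6 in PBS-given APP-PS1 mice, against 764 ± 66.8 in WT mice, without overlap, as were 59.7% and 61.7% of all genes on the lower side. Pirb was lower without overlap in PBS-given APP-PS1 over WT mice (1.51 ± 0.158 against 1.81 ± 0.0935), as were 61.7% of all genes, so nothing is read from it. The ratio is a description and carries no test.

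**Figure D4:**
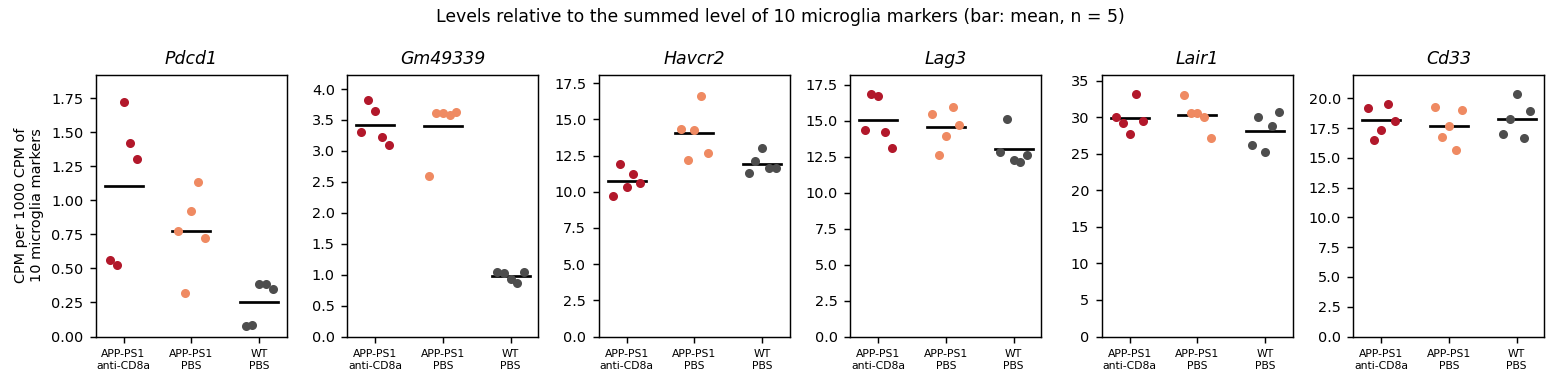
Level of 6 receptor genes per 1000 CPM of the summed 10 microglia markers (y axis) in each library (points), with the mean of 5 libraries per group (bar). Gm49339 is at most 1.04 in WT and at least 2.59 in APP-PS1 libraries, and Havcr2 is at most 12.0 in treated and at least 12.2 in PBS-given APP-PS1 libraries.

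Ligands and signalling proteins were read from lists. Of 22 ligands tested, 5 rose in treated over WT and 3 in PBS-given APP-PS1 over WT mice, and 0 fell, where 1.76% and 0.938% of all genes rose in these comparisons. Cd274, which encodes the PD-1 ligand PD-L1, was at 5.99 ± 1.09 CPM in treated, 5.44 ± 0.347 CPM in PBS-given APP-PS1 and 3.72 ± 0.682 CPM in WT mice (log2 fold change over WT 0.70, adjusted p = 0.0193 in edgeR, in treated, and 0.57, adjusted p = 0.111 in edgeR, in PBS-given APP-PS1 mice). Lgals9, encoding galectin-9, had log2 fold changes of 0.77 (adjusted p = 0.0155 in edgeR) in treated and 0.37 in PBS-given APP-PS1 mice over WT. C1qa (1.17 and 0.97), B2m (0.71 and 0.66) and H2-D1 (0.73 and 0.53) rose in both; B2m and H2-D1 encode MHC class I subunits, which Pirb binds. Cd47, the ligand of Sirpa, was at 129.8 ± 4.78, 135 ± 8.34 and 129.6 ± 3.31 CPM in treated, PBS-given APP-PS1 and WT mice and Cd200, the ligand of Cd200r1, at 85.6 ± 7.52, 100.0 ± 5.71 and 96.7 ± 11.6 CPM. Neither was called in a comparison. In treated over PBS-given mice 0 ligands were called, and the smallest p belonged to Cd200 (-0.22, adjusted p = 0.291 in edgeR) and Lgals9 (0.40, adjusted p = 0.300 in edgeR).

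Of 15 signalling genes tested, 3 rose in treated over WT mice and 2 in PBS-given APP-PS1 over WT mice, against 1.76% and 0.938% of all genes, and 0 fell. Ptpn6, encoding SHP-1, had log2 fold changes of 1.22 and 1.10, and Inpp5d, encoding SHIP1, of 0.71 in each. Syk, a kinase of the activating pathway, was past the threshold in treated over WT mice (0.58, adjusted p = 0.0241 in edgeR) and had 0.42 (adjusted p = 0.209 in edgeR) in PBS-given APP-PS1 over WT mice, which does not show that the 2 differ. Ptpn11, encoding SHP-2, had -0.03 and -0.06. All 15 had a higher estimate in treated over PBS-given APP-PS1 mice, with a median of 0.11 and 0 called, where 54.1% of all genes had a higher estimate and their median was 0.02. The smallest p belonged to the adaptor gene Dok2 (0.71, adjusted p = 0.250 in edgeR).

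Activating partners use the adaptors Tyrobp (DAP12) or Fcer1g and oppose these receptors. Among 7 tested, those that rose over WT in each comparison were Trem2 (log2 fold change 1.73 in treated and 1.59 in PBS-given APP-PS1 mice), Tyrobp (1.62 and 1.58), Fcer1g (0.99 and 0.95), Siglech (0.75 and 0.62) and Cd200r4, where 1.76% and 0.938% of all genes rose. Cd200r4, a relative of Cd200r1 without the inhibitory tail, had 85 counts in treated, 93 in PBS-given APP-PS1 and 6 in WT libraries, 0.554 ± 0.574, 0.685 ± 0.255 and 0.0381 ± 0.0251 CPM. Its WT libraries reached at most 0.0632 CPM, below the filter level of 0.334 CPM, so it was tested only through its level in APP-PS1 mice and its call supports nothing. With so few WT counts the fitted fold depends on the prior count and is not given. Cd200r1 was not called in the same mice.

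Of 17 other inhibitory receptors tested, 6 rose in treated over WT mice and 4 in PBS-given APP-PS1 over WT mice, against 1.76% and 0.938% of all genes. Vsir, which encodes VISTA, had log2 fold changes of 0.95 and 0.90, Fcgr2b, the inhibitory Fc receptor, 1.52 and 1.45, Milr1 1.72 and 1.33 and Siglecf 1.32 and 1.39. Cd72 (1.54) and Cd300lf (1.09) were called in treated over WT mice. They had 1.12 (adjusted p = 0.0901 in edgeR) and 1.13 (adjusted p = 0.0642 in edgeR) in PBS-given APP-PS1 over WT mice, which does not show that the comparisons differ. Btla, another checkpoint of lymphocytes, had -0.04 and 0.08. Ctla4 and Tigit, checkpoints of T cells, were below the filter.

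**Figure D5:**
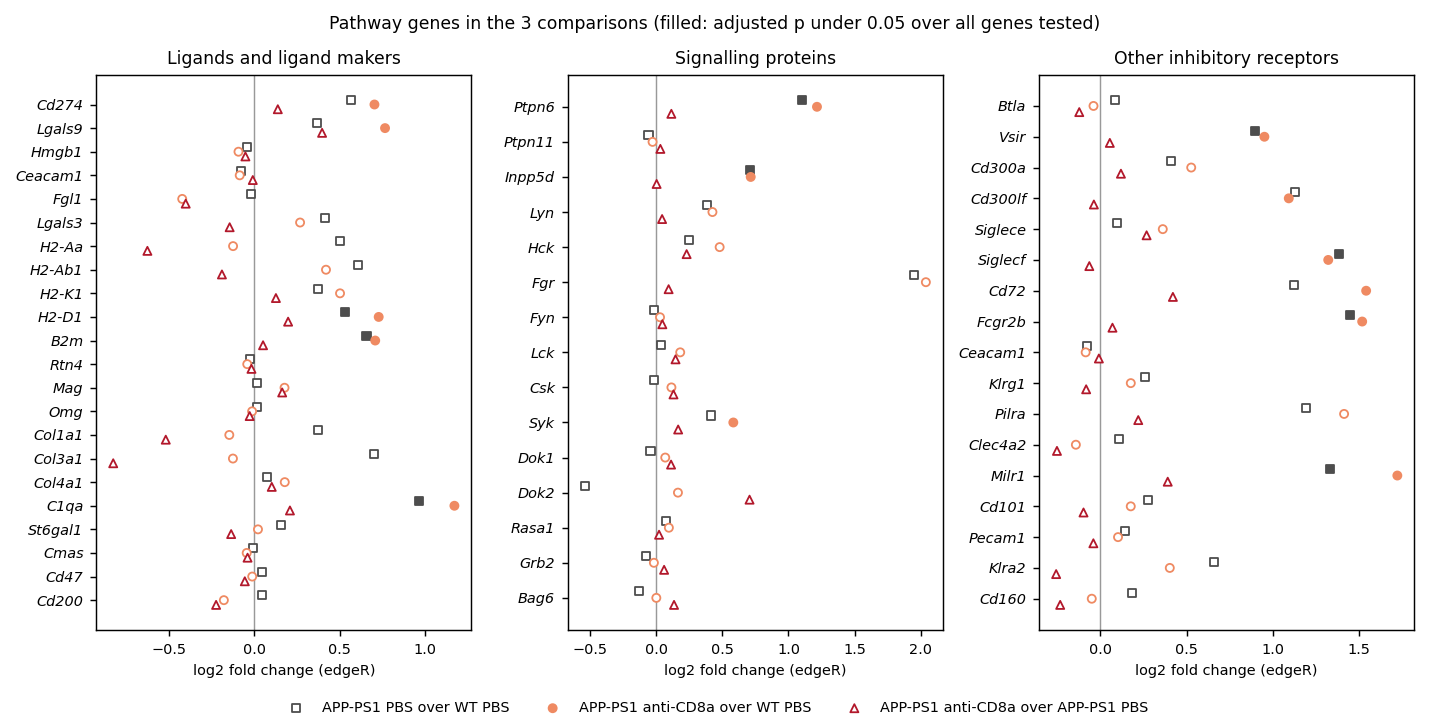
Log2 fold change (x axis, edgeR) of the tested ligand, signalling and other inhibitory receptor genes (y axis) in the 3 comparisons; filled symbols had an adjusted p under 0.05 over all genes tested. Every filled symbol belongs to a comparison with WT and lies to the right of 0.

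The genes whose log2 CPM followed Pdcd1 most closely over the 15 libraries, among 15677 genes with a mean of at least 1 CPM, were Siglech (Pearson r = 0.956), Klhl6 (0.939), Slc15a3 (0.923), Cd52 (0.921) and Fes (0.921). Their mean levels in treated, PBS-given APP-PS1 and WT mice were 30.6, 27.7 and 18.7 CPM for Siglech, 4.79, 4.18 and 1.98 CPM for Klhl6, 6.54, 5.18 and 2.01 CPM for Slc15a3, 5.52, 4.07 and 1.56 CPM for Cd52 and 5.66, 5.21 and 3.48 CPM for Fes. Log2 CPM used a prior count of 2, Pdcd1 had 49 counts at most, and the libraries share group structure, so this is a description.

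Sex was compared too, a step added after the data were seen. By the labels no member passed between male and female mice, against 0.0316% of genes, and with each mouse's sex taken instead from Xist and Y-linked genes none passed either, against 0.0685%. The estimate was lower in males for 8 of the 10 members with sex from the genes or from the labels, and higher for Pirb (0.22 by the genes) and Cd200r1 (0.30). The largest by the genes were those of Cd22 (log2 difference -0.99, SE 0.28, adjusted p = 0.363 in edgeR), Pdcd1 (-0.51, SE 0.42) and Lag3 (-0.45, SE 0.12). Labelled males were 3 of 5 treated, 3 of 5 PBS-given APP-PS1 and 1 of 5 WT mice, so sex was kept in the model of every comparison.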

How the data were processed

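The authors deposited whole-number read counts for 46078 Ensembl genes in 15 libraries. The submitters' processing notes name Bowtie2 2.2.2 and HTSeq 0.11.2, beside FastQC and DESeq2, and the build GRCm38. No source used here gives the strand setting or annotation release of the counting. HTSeq's summary lines, which name no gene, were left out; 19.97 to 25.85% of reads had no feature, 1.635 to 1.787% were ambiguous and 2.699 to 2.917% were not unique. Symbols were matched for 45143 IDs; 935 without one held 0.101% of counts.

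Counts were fitted with edgeR 4.0.16 (R 4.3.3) by glmQLFit and glmQLFTest, with TMM scaling, filterByExpr by group, all 15 libraries in 1 fit of group and labelled sex, two-sided, adjusted by Benjamini and Hochberg over 18974 genes at 0.05. CPM are TMM-scaled. Alternatives were DESeq2 1.42.0, limma-voom (limma 3.58.1), other size factors and filters, other covariates, the 2 groups alone, no libraries above 1000 CPM of Ttr and leaving out each library. Scripts were tested on simulated data.

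The members and lists were chosen with earlier results of these data known. All 10 members are named, with list genes past the threshold, up to 4 of smallest p per list, and the 5 genes most like Pdcd1. For ligands and signalling genes, those of smallest p are named where none passed. Marker lists are given by their sums, with Gfap and Aqp4. List genes beyond these were named after their values were seen. They are Cd200r4, Cd47, Cd200, Cd72, Cd300lf, Ptpn11, Btla, Ctla4, Tigit, Cd3e, Cd8a, Slc1a3, Aldh1l1, Ighm, Flt3, Zbtb46, Xcr1, Clec9a and Cd209a. A few list genes are not reported here.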

Additional observations from a re-analysis of the deposited data

Results flagged for a closer look

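In the 5 treated libraries Cd22 had its highest value, 2.69 CPM in replicate 3, far from the nearest other library at 1.10 CPM; the gap was 0.783 of the group's range, over the critical value of 0.71 for 5 samples. In the 5 WT libraries Pirb had its lowest value, 0.635 CPM in replicate 3, against 0.761 CPM in the nearest library, a gap of 0.813 of the range. These are 2 of 30 groups looked at, and chance marks about 1 in 20.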

How the results depend on the processing

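In PBS-given APP-PS1 over WT mice, 5 members were called, and without the sex covariate 3 (Havcr2, Gm49339 and Lair1); leaving out 1 library gave 4 to 7. Over all genes the 195 calls became 361 with DESeq2, 115 without the sex covariate and 98 without the 5 libraries rich in Ttr; leaving out 1 library gave 145 to 253. In treated over PBS-given APP-PS1 mice, 0 genes became 132 with DESeq2, 13 with no filter on low counts and 1 with the 2 groups alone; leaving out 1 library gave 0 to 3, and no alternative called a member. In treated over WT mice the 369 calls became 221 with the 2 groups alone and 199 without the Ttr-rich libraries; leaving out 1 library gave 140 to 441 genes and 4 to 7 members, the lowest of both without treated replicate 3. Estimates that changed sign were Sirpa in PBS-given APP-PS1 over WT mice (without PBS replicate 1, WT replicate 1 or WT replicate 5; range -0.00373 to 0.0977 over left-out libraries), and Gm49339 (-0.0044) and Lair1 (-0.0235) in treated over PBS-given mice, both without treated replicate 3 (ranges -0.0044 to 0.188 and -0.0235 to 0.157). Causes were not tested. Pdcd1 and Cd22 in PBS-given APP-PS1 over WT mice passed with DESeq2 (adjusted p = 0.0157 and 0.0130) and with no filter (adjusted p = 0.0210 and 0.0179 in edgeR). Lag3 lost its call in that comparison (adjusted p = 0.104 in edgeR) and Havcr2 in treated over WT mice (adjusted p = 0.126 in edgeR) without the sex covariate. Among alternatives other than leaving out 1 library, Cd22 lost its call in treated over WT mice in 2 of 9. Cd33 lost its call in PBS-given APP-PS1 over WT mice in 2 of 10 of them. Over the members' fold changes, 705 alternatives kept direction and call, 9 gained a call, 17 lost one and 5 changed sign. No paired analysis was possible because each library is a different mouse and the labels name no pairs. Replicate numbers only count the libraries within a group.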
